A study of Mus musculus with 3 samples.

Results

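Cirbp and Rbm3, a pair of genes known for their induction by cold, were read in single cells of mouse inguinal white fat. They were found by symbol and are 2 of the 28692 genes listed. They were followed in barcodes with at least 500 detected genes and at most 15% mitochondrial UMIs (unique molecular identifiers, which count RNA molecules), in every marker-defined cell class with at least 50 cells in a library. Such classes held 16262 of the 16684 cells that passed. Single-cell 3′ libraries (10x Chromium v3) were made from the stromal vascular fraction, the cells of fat other than its adipocytes, of C57BL/6 mice. One library, called cold here, came from mice housed at 4 °C for 3 days. Another, called CL, came from mice given CL at 1 mg/kg into the peritoneum for 3 days. CL stands for a compound that activates the β3-adrenergic receptor selectively. The last came from mice given saline. The tissue was dissociated with a Miltenyi kit in all 3 groups. The sources used here do not give how many mice made up a library, their age or sex, or whether injections were also given in the cold.

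CIRBP and RBM3 are small proteins with 1 RNA-recognition motif and a glycine-rich tail. They bind RNA and are made in greater amounts when mammalian cells are mildly cooled, and many cell types carry them. CIRBP is also known to respond to ultraviolet light and other stresses and to bind transcripts of clock genes, and RBM3 is known in neurons for a part in synapse maintenance. Cold housing activates sympathetic nerves of fat, and a β3-adrenergic agonist acts on adipocytes as those nerves do, without cooling the animal's surroundings.

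Cirbp lies on chromosome 10 (mm10, 80165985 to 80172786, plus strand) and Rbm3 on the X chromosome (mm10, 8138975 to 8145880, minus strand), both protein-coding in GENCODE M21. The bases before a Cirbp transcript start are shown because a mild cold-responsive element, TCCCCGCC, has been described in the promoter of this gene. The window is chr10:80167589-80167838 of GRCm38.p6, plus strand, from RefSeq, with the 250 bases before the start written 5′ to 3′. Capitals mark that element and GGGCGG (the GC box), on either strand, and no 2 of these matches overlap.
Cirbp: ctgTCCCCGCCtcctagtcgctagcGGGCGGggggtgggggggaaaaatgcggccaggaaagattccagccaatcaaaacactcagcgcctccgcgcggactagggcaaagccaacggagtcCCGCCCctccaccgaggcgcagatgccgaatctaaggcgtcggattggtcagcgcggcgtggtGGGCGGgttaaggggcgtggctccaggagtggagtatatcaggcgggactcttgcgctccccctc
This is the first of 2 Cirbp starts listed, and both windows lie inside the gene span given above, after its first base. The element stood at bases -247 to -240 from the start and GC boxes at -225 to -220, at -65 to -60 and, on the opposite strand, at -128 to -123. TGACG (part of a cAMP response element) and GAANNTTC (the core of a heat shock element) had no match in these 250 bases on either strand. Of 32851 mouse promoter windows of the same length, 4.64% held TCCCCGCC, 32.7% GGGCGG, 17.8% TGACG and 6.69% GAANNTTC. The window of the other Cirbp start held GC boxes and, on the opposite strand, TGACG, but no TCCCCGCC.

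The cold, CL and saline libraries gave 3858, 6641 and 6185 cells, with medians of 3623, 3837 and 3210 UMIs per cell. They shared 7 (cold and saline), 9 (CL and saline) and 4 (CL and cold) cell barcodes. Scrublet called 4 cold, 64 CL and 86 saline cells doublets, and its limit in the cold library left nearly all cells in. With 1 library per group there are no replicates. No test was run, and every interval is a 95% interval for counting error only. Cell classes of a library share its mice and are not replicates of a treatment. A gene was called higher or lower in a class where the log2 ratio of its summed UMIs, scaled to 1000000 UMIs of the class (CPM), was at least 0.5 in size, with at least 50 cells in both libraries and 20 UMIs of the gene. Classes are written X-like because they were rebuilt from marker genes, and no cluster took the name adipocyte-like. Neither Cirbp nor Rbm3 was among the variable genes that made the clusters. No class here is known to lack either gene. Free RNA was judged from markers: B cell markers in classes that should lack them were at 0 to 7.57% of their B cell-like level, and markers of adipose stromal and progenitor cells (ASPC) at 0.0910 to 0.495% of theirs. All 3 libraries held Y-linked UMIs (3864, 4114 and 5059) and at most 3 of Xist. Mitochondrial genes took 5.91% of cold, 4.26% of CL and 5.08% of saline UMIs, and ribosomal protein genes 16.7%, 11.9% and 15.05%.

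Cirbp was present at low levels in every class. Over classes its level ran from 57.7 to 147 CPM in the cold library, from 23.7 to 70.1 CPM in the CL library and from 25.1 to 83.6 CPM in the saline library. In saline it was highest in plasmacytoid dendritic-like cells (83.6 CPM) and endothelial-like cells (67.9 CPM) and lowest in monocyte-like cells (25.1 CPM) and ASPC-like cells (26.3 CPM). In the cold library ASPC-like cells were at 67.4 CPM and monocyte-like cells at 63.7 CPM, and type 1 dendritic-like cells were lowest (57.7 CPM). The spread between classes was 2.56-fold in cold, 2.96-fold in CL and 3.34-fold in saline. In all 3 libraries every class and the next one in this order differed by less than counting error, with 8 to 393 Cirbp UMIs in a class and library.

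Rbm3 followed another order. Over classes it ran from 184 to 1263 CPM in cold, from 326 to 1046 CPM in CL and from 86.2 to 770.1 CPM in saline. Type 1 dendritic-like cells, which present antigen to CD8 T cells, were highest in cold (1263 CPM) and saline (770.1 CPM), and NK cell-like cells were highest in CL (1046 CPM). Schwann-like cells, the glia of peripheral nerves, were lowest in cold (184 CPM) and saline (86.2 CPM), and had too few cells in CL. Stromal classes were low: ASPC-like cells had 390.2 CPM in cold, 419.5 CPM in CL and 244.5 CPM in saline. In the cold order T cell-like (1162 CPM), NK cell-like (1056 CPM), type 2 dendritic-like (892.8 CPM), B cell-like (880.0 CPM) and plasmacytoid dendritic-like cells (740.4 CPM) followed the type 1 class, and neither the T cell-like and NK cell-like levels nor the type 2 dendritic-like and B cell-like levels differed beyond counting error. The order of Rbm3 was lymphoid and dendritic over stromal in each library, while that of Cirbp was not.

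**Figure D1:**
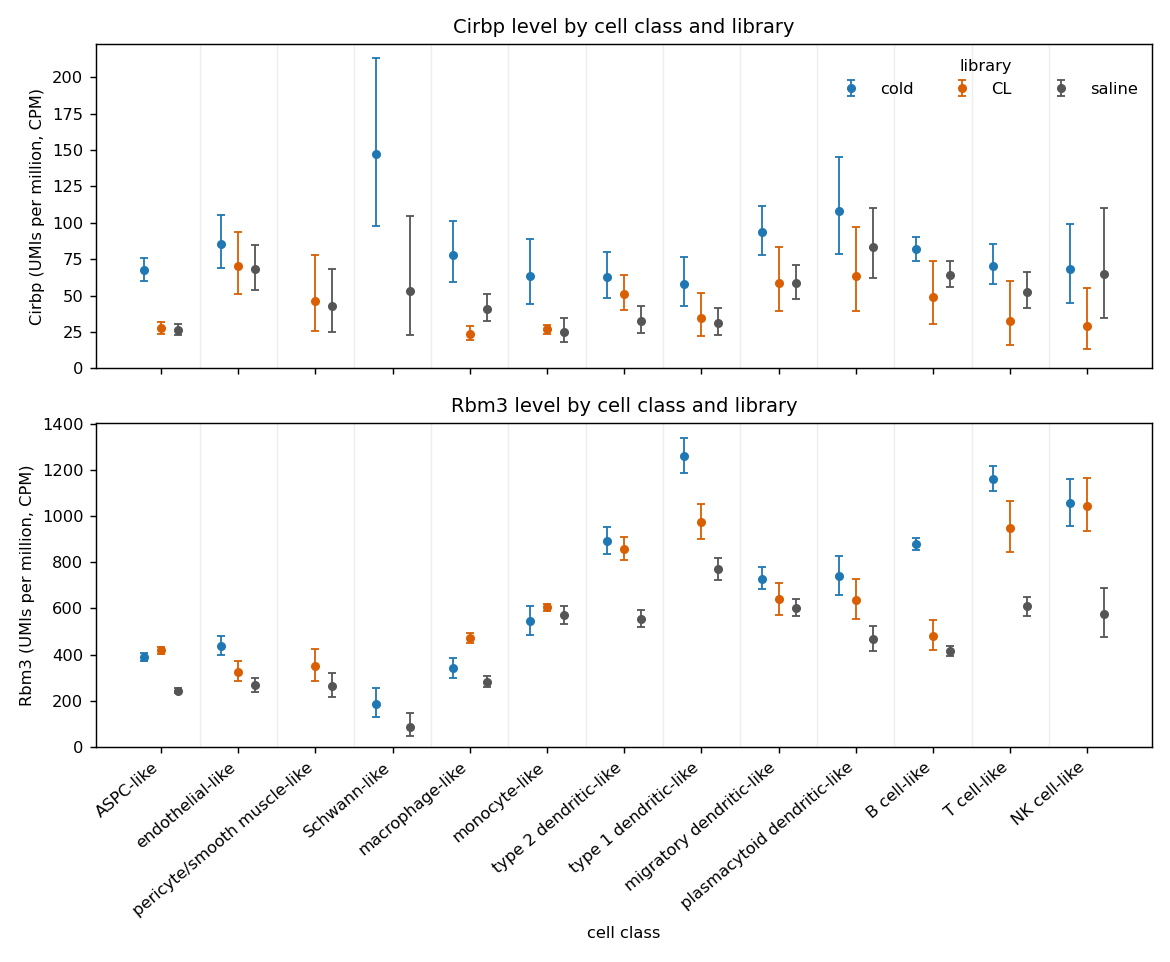
Levels of Cirbp (top) and Rbm3 (bottom) in CPM by cell class, for the cold, CL and saline libraries, shown for classes with at least 50 cells. Points are summed counts and bars exact Poisson 95% intervals for counting error; the cold ASPC-like point of Cirbp stands at 67.4 CPM, above 27.5 CPM in CL and 26.3 CPM in saline.

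Cirbp was higher in cold than in saline in all 12 classes that could be compared, and by the call in 7 of them. The 7 were ASPC-like, Schwann-like, macrophage-like, monocyte-like and the 3 conventional dendritic-like classes (type 1, type 2 and migratory). For 8 classes the counting interval lay wholly above 0. Of 1631 genes with at least 20 UMIs in each of the 12 classes, Cirbp included, 5.58% were above 0 in all 12 and 1.66% were called higher in at least 7. The median gene was called higher in 1 class. The median log2 ratio of Cirbp over classes was 0.78, and no other of these genes had a higher one.

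In ASPC-like cells, the cells that give rise to adipocytes, Cirbp had 67.4 CPM in cold (295 UMIs, 600 cells), 27.5 CPM in CL (197 UMIs, 1079 cells) and 26.3 CPM in saline (206 UMIs, 1232 cells). The cold library stood apart, and the CL and saline intervals overlapped. The log2 ratio of cold over saline was 1.35 (95% interval 1.09 to 1.62), a fold of 2.56. Of 9729 genes tested in this class, 9.72% were called higher and 13 exceeded Cirbp. In monocyte-like cells Cirbp had 63.7 CPM in cold (35 UMIs) and 25.1 CPM in saline (38 UMIs), a log2 ratio of 1.35 (0.64 to 2.05), against a background of 12.3% of genes called higher. The cold monocyte-like cells came mostly from the cluster led by Chil3 and Thbs1 (87 of 120), whereas the saline ones were spread over this cluster (72), one led by Spp1 (171) and one led by Ccr2 (196). Within the Chil3 and Thbs1 cluster Cirbp had 69.5 CPM in cold and 22.4 CPM in saline, at a log2 ratio of 1.63 (0.18 to 3.39) that rests on 21 and 5 UMIs.

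Macrophage-like cells had 77.9 CPM of Cirbp in cold and 40.9 CPM in saline (log2 ratio 0.93, 0.41 to 1.43), where 10.5% of genes were called higher. Type 2 dendritic-like cells, which prime CD4 T cells, had 62.9 CPM in cold and 32.8 CPM in saline (0.94, 0.39 to 1.49; background 8.46%). Type 1 dendritic-like cells had 57.7 CPM in cold and 31.1 CPM in saline (0.89, 0.28 to 1.51; background 15.3%). In the migratory dendritic-like class the levels were 93.6 CPM in cold and 58.5 CPM in saline (0.68, 0.29 to 1.07; background 13.7%). That class was named from markers, which do not show where its cells were. Schwann-like cells had the highest cold level, 147 CPM against 53.1 CPM in saline, from 28 and 8 UMIs (1.47, 0.30 to 2.82). The background there was 14.3%, or 16.6% over genes with at least 20 UMIs, the limit set for Cirbp. The intervals of these 5 classes lay above 0, and the Schwann-like one was the widest. With cells thinned to 1500 UMIs and shallower cells left out, the ratio was 1.22 in ASPC-like cells but below the call in monocyte-like (0.46), migratory dendritic-like (0.41) and macrophage-like cells (0.35).

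In 5 classes Cirbp was not called. B cell-like cells had 81.8 CPM in cold and 64.4 CPM in saline, at a log2 ratio of 0.34 with an interval (0.10 to 0.59) above 0. The intervals of the other 4 reached below 0. T cell-like cells stood at 0.42 (-0.03 to 0.87), plasmacytoid dendritic-like cells at 0.37 (-0.24 to 0.98), endothelial-like cells at 0.33 (-0.12 to 0.79) and NK cell-like cells at 0.08 (-0.92 to 1.16). These intervals hold both no difference and differences past the call, so no order among these classes can be read. The direction itself turned in plasmacytoid dendritic-like cells when thinned (-0.20) and in NK cell-like cells without dividing cells (-0.04) and at a mitochondrial limit of 10% (-0.02), where 11 of 12 classes were above 0.

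Rbm3 was higher in cold than in saline in 11 of 12 classes, and called higher in 9. The 11 intervals above 0 were those of the same 11 classes. Of the 1631 genes, 14.2% were above 0 in at least 11 classes and 0.307%, 5 genes with Rbm3 among them, were called higher in at least 9. The other 4 were Mpc1, a mitochondrial pyruvate carrier, Psma5, a proteasome subunit, Rplp0, a ribosomal protein, and Ubb, a ubiquitin gene. They were named after their values were seen. The median log2 ratio of Rbm3 over classes was 0.69, which 2 of the 1631 genes exceeded, Cirbp being one.

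Among classes with at least 100 UMIs of Rbm3 in both libraries the difference was largest in lymphoid ones. In B cell-like cells Rbm3 had 880.0 CPM in cold (4230 UMIs), 482.7 CPM in CL (218 UMIs) and 414.4 CPM in saline (1352 UMIs). The cold level was outside both other intervals, and the log2 ratio of cold over saline was 1.09 (1.00 to 1.18), a fold of 2.12, where 14.1% of genes were called higher. T cell-like cells had 1162 CPM in cold and 609.1 CPM in saline (0.93, 0.81 to 1.05; background 20.1%). NK cell-like cells had 1056 CPM in cold and 576.1 CPM in saline (0.87, 0.57 to 1.18; background 14.6%). All 3 of these lymphoid intervals lay above the call limit of 0.5.

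Outside the lymphoid classes Rbm3 was called in 6 more. Schwann-like cells had 184 CPM in cold and 86.2 CPM in saline, from 35 and 13 UMIs (1.10, 0.14 to 2.14). The other 5 kept to a narrow band, from 0.66 to 0.71. ASPC-like cells had 390.2 CPM in cold and 244.5 CPM in saline (0.67, 0.58 to 0.77). Endothelial-like cells, which line vessels, had 438.6 CPM in cold and 269.0 CPM in saline (0.71, 0.49 to 0.92; background 12.6%). The ratios of the dendritic-like classes were 0.71 (0.59 to 0.84) in type 1, 0.68 (0.55 to 0.82) in type 2 and 0.66 (0.42 to 0.90) in plasmacytoid cells, where as many as 23% of genes were called higher. The plasmacytoid value was below the call when cells were thinned (0.38), and the Schwann-like value when each cell's own CPM were averaged (0.49).

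Myeloid cells other than these differed less in Rbm3. Monocyte-like cells had 546.4 CPM in cold and 572.3 CPM in saline, a log2 ratio of -0.07 (-0.26 to 0.12), whose sign turned under other cluster resolutions (0.17 at both 0.5 and 2). Within the Chil3 and Thbs1 cluster, which held most of the cold monocyte-like cells, Rbm3 had 556.0 CPM in cold and 480.4 CPM in saline. The log2 ratio there was 0.21 (-0.15 to 0.57), not called. Macrophage-like cells had 340.4 CPM in cold and 282.6 CPM in saline (0.27, 0.05 to 0.49), and migratory dendritic-like cells 729.6 CPM in cold and 603.1 CPM in saline (0.27, 0.15 to 0.40). In these 3 classes Cirbp was called higher and Rbm3 was not.

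**Figure D2:**
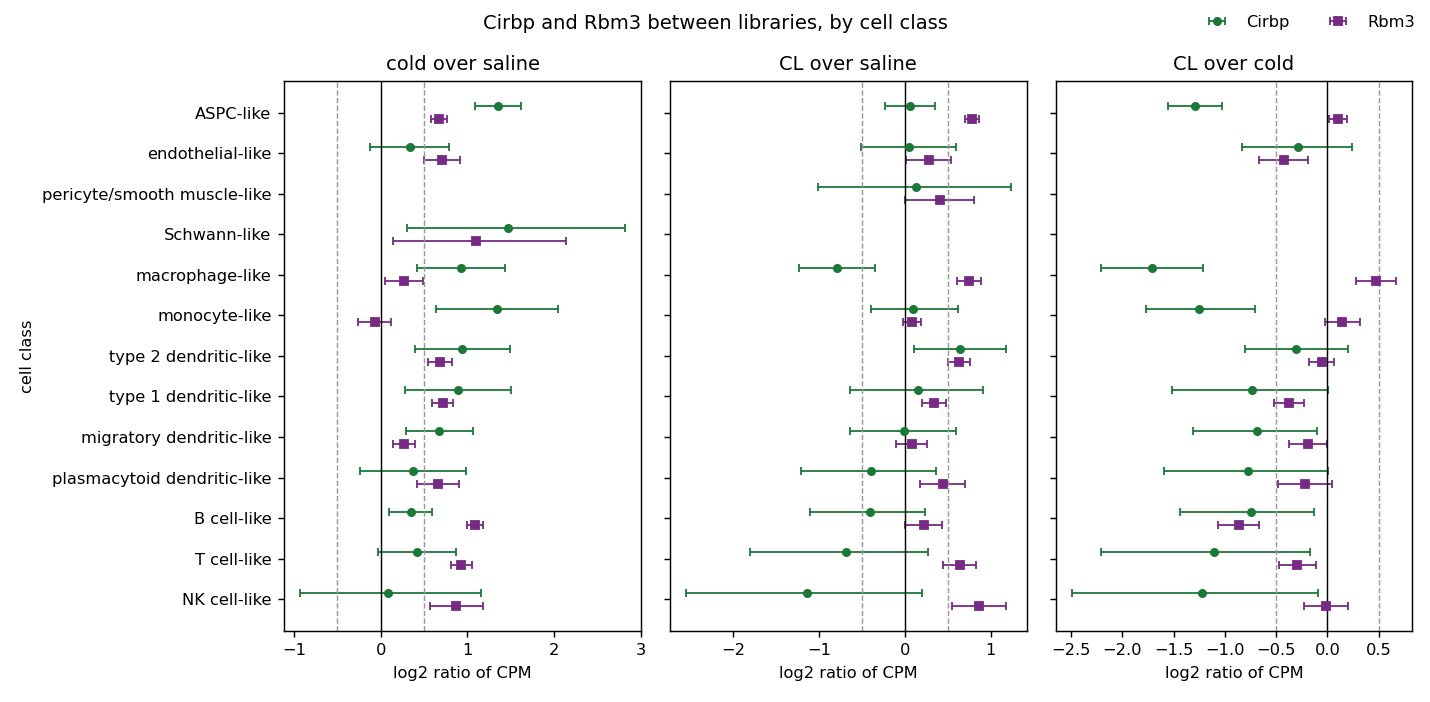
Log2 ratios of CPM between libraries for Cirbp (circles) and Rbm3 (squares) by cell class, in 3 panels for cold over saline, CL over saline and CL over cold. Bars are exact conditional binomial 95% intervals for counting error, the solid line marks 0 and dashed lines mark the call limit of 0.5; all 12 Cirbp ratios of cold over saline lie right of 0, and all 11 of CL over cold lie left of it.

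The 2 genes did not differ in the same classes to the same degree. The log2 ratio of Cirbp minus that of Rbm3, in which library totals cancel, was positive in 7 of 12 classes for cold over saline. It was 1.41 (0.73 to 2.10) in monocyte-like, 0.68 (0.41 to 0.95) in ASPC-like, 0.66 (0.13 to 1.19) in macrophage-like and 0.40 (0.01 to 0.80) in migratory dendritic-like cells, where intervals lay above 0. It was -0.74 (-0.999 to -0.484) in B cell-like and -0.51 (-0.96 to -0.07) in T cell-like cells, where they lay below 0. In the other 6 classes the interval held 0. These differences use all cells of a class. The Cirbp ratios of monocyte-like, macrophage-like and migratory dendritic-like cells were smaller when cells were thinned. In the T cell-like cluster led by Trbc2 and Cd3g the ratios were alike, 0.81 for Cirbp and 0.82 for Rbm3.

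Against saline, CL went with a different pattern. Cirbp was above 0 in 6 of 12 classes, with a median log2 ratio of 0.02, called higher in 1 class and lower in 3. Of 2520 genes with at least 20 UMIs in every class of this comparison, 73.1% were called higher in at least 1 class and 15.6% lower in at least 3. The class called higher was type 2 dendritic-like cells, with 51.0 CPM in CL and 32.8 CPM in saline (0.64, 0.10 to 1.18; background 19.8%), and 0.28 when thinned. Macrophage-like cells had 23.7 CPM in CL and 40.9 CPM in saline (-0.79, -1.23 to -0.34), where 17.1% of genes were called lower, and the ratio was -0.46 with classes taken from each cell's own markers. The call in T cell-like cells (-0.69, -1.81 to 0.27; 14.6% of genes called lower) rested on 10 CL UMIs. That in NK cell-like cells (-1.14, -2.55 to 0.20; 16%, or 19.95% over genes with at least 20 UMIs) rested on 9. Both intervals held 0. ASPC-like cells stood at 0.06 (-0.23 to 0.35) over the whole class, most of whose CL cells (677 of 1079) were in a cluster nearly absent from the other libraries.

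Rbm3 was above 0 in all 12 classes for CL over saline and was called higher in 5. Of the 2520 genes, 4.72% were above 0 in all 12 and 13.3% were called higher in at least 5. ASPC-like cells had 419.5 CPM in CL and 244.5 CPM in saline (0.78, 0.70 to 0.86; 16% of genes called higher). Macrophage-like cells had 473.5 CPM in CL and 282.6 CPM in saline (0.74, 0.61 to 0.88; background 29.9%). Type 2 dendritic-like cells had 859.3 CPM in CL and 555.8 CPM in saline (0.63, 0.50 to 0.76). T cell-like cells had 948.9 CPM in CL and 609.1 CPM in saline (0.64, 0.44 to 0.83; background 18%), and NK cell-like cells 1046 CPM in CL and 576.1 CPM in saline (0.86, 0.55 to 1.18; background 28%). When thinned, T cell-like and NK cell-like cells were below the call (both 0.46), as were T cell-like cells without dividing cells (0.47) and macrophage-like cells at a mitochondrial limit of 5% (0.45). In macrophage-like cells the 2 genes went opposite ways, with a Cirbp minus Rbm3 difference of -1.53 (-1.98 to -1.08).

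The CL macrophage-like and ASPC-like cells came largely from clusters that the other libraries hardly held. A cluster led by Saa3 had 855 CL, 0 cold and 48 saline cells, and a cluster led by Timp1 and Cxcl9 had 677 CL, 1 cold and 55 saline cells. In the macrophage-like cluster led by Retnla and Fcna, which all 3 libraries held, Rbm3 had 330.6 CPM in CL and 266.3 CPM in saline (0.31, 0.04 to 0.58), which is not called. Cirbp there had 29.0 CPM in CL and 42.4 CPM in saline (-0.55, -1.52 to 0.31). In the ASPC-like cluster led by Pi16, Rbm3 had 308.9 CPM in CL and 231.3 CPM in saline (0.42, 0.23 to 0.60), below the call, and in those led by Col5a3 and by Gdf10 it stood at 0.61 (0.40 to 0.83) and 0.58 (0.31 to 0.85). Cirbp in these ASPC-like clusters had 36.6 CPM in CL and 27.2 CPM in saline with Pi16 (0.43, -0.15 to 0.98), 39.0 CPM in CL and 24.2 CPM in saline with Col5a3 (0.69, -0.04 to 1.38), and 31.3 CPM in CL and 29.97 CPM in saline with Gdf10 (0.06, -0.81 to 0.92). The Col5a3 value is past the call limit, and all 3 intervals hold 0. The part of cluster makeup in the class values was not tested further.

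Set directly against cold, CL had less Cirbp in every class. All 11 log2 ratios of CL over cold were below 0, 9 were called lower and none higher. The counting interval lay wholly below 0 in 7 classes. Those of type 1 dendritic-like (-0.73, -1.52 to 0.01) and plasmacytoid dendritic-like cells (-0.77, -1.595 to 0.01) held 0, though both classes were called. The calls in NK cell-like and T cell-like cells rested on 9 and 10 CL UMIs. Of 3043 genes with at least 20 UMIs in each of the 11 classes, 0.0986% were called lower in at least 9, and these were Cirbp, the ribosomal protein gene Rpl10 and the peptide transporter gene Slc15a2, the last 2 named after their values were seen. The median over classes was -0.77, and 1 other gene had a lower one. ASPC-like cells had 27.5 CPM in CL and 67.4 CPM in cold (-1.29, -1.56 to -1.03; 11.1% of genes called lower). In the ASPC-like clusters that all libraries held, the ratio was -0.97 (-1.52 to -0.45) with Pi16, -1.24 (-2.02 to -0.51) with Gdf10 and -0.49 (-1.20 to 0.19), not called, with Col5a3. Macrophage-like cells had 23.7 CPM in CL and 77.9 CPM in cold (-1.72, -2.21 to -1.22; 19.3% of genes called lower). In the shared cluster led by Retnla and Fcna the ratio was -1.42 (-2.42 to -0.54), from 13 CL UMIs. Monocyte-like cells stood at -1.26 (-1.77 to -0.71), but at -0.16 when thinned. Most CL monocyte-like cells were in the clusters led by Spp1 (1531 of 3045) and Ccr2 (1031), which held 7 and 26 of the 120 cold ones. In the Chil3 and Thbs1 cluster Cirbp had 23.4 CPM in CL and 69.5 CPM in cold (-1.57, -2.39 to -0.72). In the 2 classes not called, endothelial-like and type 2 dendritic-like cells, the ratios were -0.29 (-0.83 to 0.24) and -0.30 (-0.80 to 0.20).

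For Rbm3 CL and cold lay closer. B cell-like cells were the class called, with 482.7 CPM in CL and 880.0 CPM in cold (-0.87, -1.07 to -0.67; 19.6% of genes called lower in this class). Of the 3043 genes, 61.6% were called lower in at least 1 class. Ratios in the other 10 classes ran from -0.43 (-0.67 to -0.19) in endothelial-like to 0.48 (0.28 to 0.67) in macrophage-like cells, where the cluster makeup given above applies. In the shared cluster led by Retnla and Fcna the macrophage-like ratio was -0.04 (-0.35 to 0.26), and in the ASPC-like cluster led by Pi16 it was -0.25 (-0.44 to -0.06), against 0.10 over the ASPC-like class. The ratios of CL over saline and of cold over saline share the saline library, and CL over cold shares both others, so the 3 comparisons are not independent.

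Clusters inside the classes gave the cold values at finer grain. In 19 clusters with at least 50 cells in both libraries and enough UMIs, Rbm3 was higher in cold in all 19 (called in 16) and Cirbp in 18 (called in 13). Of 1060 genes with at least 20 UMIs in each of these clusters, 4.34% were above 0 in all 19 and 9.72% in at least 18, while 0.189% were called higher in at least 16 and 0.566% in at least 13. The 3 ASPC-like clusters gave close values: Cirbp stood at 1.40 (1.05 to 1.76) in the one led by Pi16, at 1.18 (0.64 to 1.72) in the one led by Col5a3 and at 1.31 (0.63 to 2.01) in the one led by Gdf10. Rbm3 in these stood at 0.66, 0.79 and 0.68. Pi16 marks progenitors around vessels and in the interstitium, and Col15a1, also among the leading genes of the Col5a3 cluster, marks a stromal state found across tissues. Endothelial-like cells divided: Cirbp had 81.1 CPM in cold and 79.8 CPM in saline in the cluster led by Gpihbp1, a capillary gene (0.02, -0.55 to 0.61), but 102.8 CPM in cold and 57.6 CPM in saline in the cluster led by Mgp and Clu (0.84, 0.01 to 1.64). Rbm3 was at 0.73 (0.45 to 1.03) and 0.70 (0.33 to 1.07) there. The 2 Cirbp intervals overlap, so a difference between these clusters is not shown. An unnamed cluster led by Pla2g2d was at 0.96 (-0.30 to 2.43) for Cirbp and 1.02 (0.68 to 1.37) for Rbm3.

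**Figure D3:**
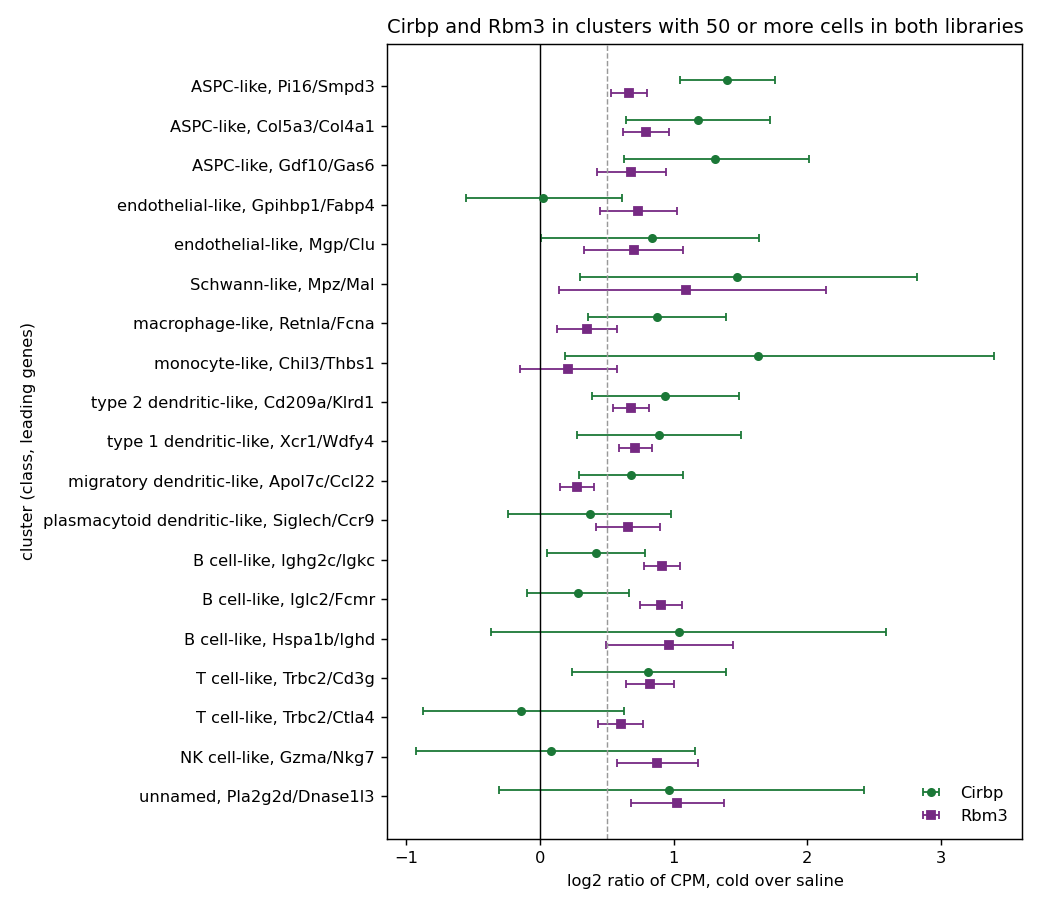
Log2 ratios of CPM, cold over saline, of Cirbp (circles) and Rbm3 (squares) in 19 clusters with at least 50 cells in both libraries, named by class and leading genes. Bars are 95% counting intervals, the solid line marks 0 and the dashed line the call limit of 0.5; every Rbm3 point lies right of 0, and the Cirbp point left of 0 is the T cell-like cluster led by Trbc2 and Ctla4, at -0.14.

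Dividing cells differed from the rest of their class, for Rbm3 above all. Cells with a UMI of Mki67 or Top2a, genes of dividing cells, had a higher Rbm3 CPM than other cells of the same class and library in 19 of 20 class and library pairs with at least 20 cells of each kind, and 16 intervals lay above 0. Their median log2 ratio was 0.54. In cold B cell-like cells Rbm3 had 1422 CPM in dividing cells and 721.4 CPM in the rest (0.98, 0.89 to 1.07). Saline B cell-like cells gave 812.2 CPM in dividing cells and 382.1 CPM in the rest (1.09, 0.86 to 1.31). Such cells were 131 of 1456 cold and 51 of 1620 saline B cell-like cells. They were also deeper, with a median of 6765 UMIs against 2455 in the other cold cells. Without them the log2 ratio of Rbm3 in B cell-like cells was 0.92, against 1.09 with them.

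Cirbp showed no such common direction: 12 of the 20 pairs were above 0, with 2 intervals above 0 and 3 below. In cold T cell-like cells it had 49.3 CPM in dividing cells and 93.9 CPM in the rest (-0.93, -1.54 to -0.34), while in saline T cell-like cells it had 56.4 CPM in dividing cells and 50.9 CPM in the rest (0.15, -0.62 to 0.88). Dividing cells were 28.8% of cold and 16.3% of saline T cell-like cells. Left out of both libraries, they leave a Cirbp log2 ratio of 0.88 in T cell-like cells, which is past the call, against 0.42 with them. The T cell-like cluster led by Trbc2 and Cd3g gave 0.81 (0.24 to 1.39) for Cirbp, with 85.1 CPM in cold and 48.5 CPM in saline. Type 1 dendritic-like cells moved the other way, to 0.52 without dividing cells.

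The share of cells with a UMI depends on depth, so shares are given as read and after thinning cells to 1500 UMIs. Cells with fewer UMIs were left out, 160 of 3858 in cold, 543 of 6641 in CL and 827 of 6185 in saline, so thinned values describe the deeper cells. The loss was most uneven among B cell-like cells, with 42 of 1456 left out in cold, 99 of 234 in CL and 511 of 1620 in saline. In ASPC-like cells Cirbp was read in 37.5% of cold, 16.1% of CL and 14.8% of saline cells. Thinned shares were 9.63% in cold (7.37 to 12.3), 3.51% in CL (2.48 to 4.80) and 4.27% in saline (3.20 to 5.56). The cold share stayed above both others. For Rbm3 the ASPC-like shares were 89.5% in cold, 85.0% in CL and 73.5% in saline as read, and 45.9%, 44.1% and 30.3% after thinning. In B cell-like cells Rbm3 was read in 80.9% of cold, 50% of CL and 47.0% of saline cells, and after thinning in 65.4%, 46.7% and 41.8%. Among the B cell-like cells deep enough to thin, the share with an Rbm3 UMI was thus highest in cold. Thinned Cirbp shares were at or below 18.5% in every class and library, which leaves wide intervals in classes of about 100 cells.

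Counts of the 2 genes were spread over many cells. The most UMIs in a single cell were 4 of Cirbp, and 57 of Rbm3 in a cold B cell-like cell. In thinned cells, a UMI of both genes was found in 237 cold, 132 CL and 153 saline cells. The product of their shares, summed over classes, came to 235.7, 128.3 and 144.9. The observed number was 1.01, 1.03 and 1.06 times that product.

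**Figure D4:**
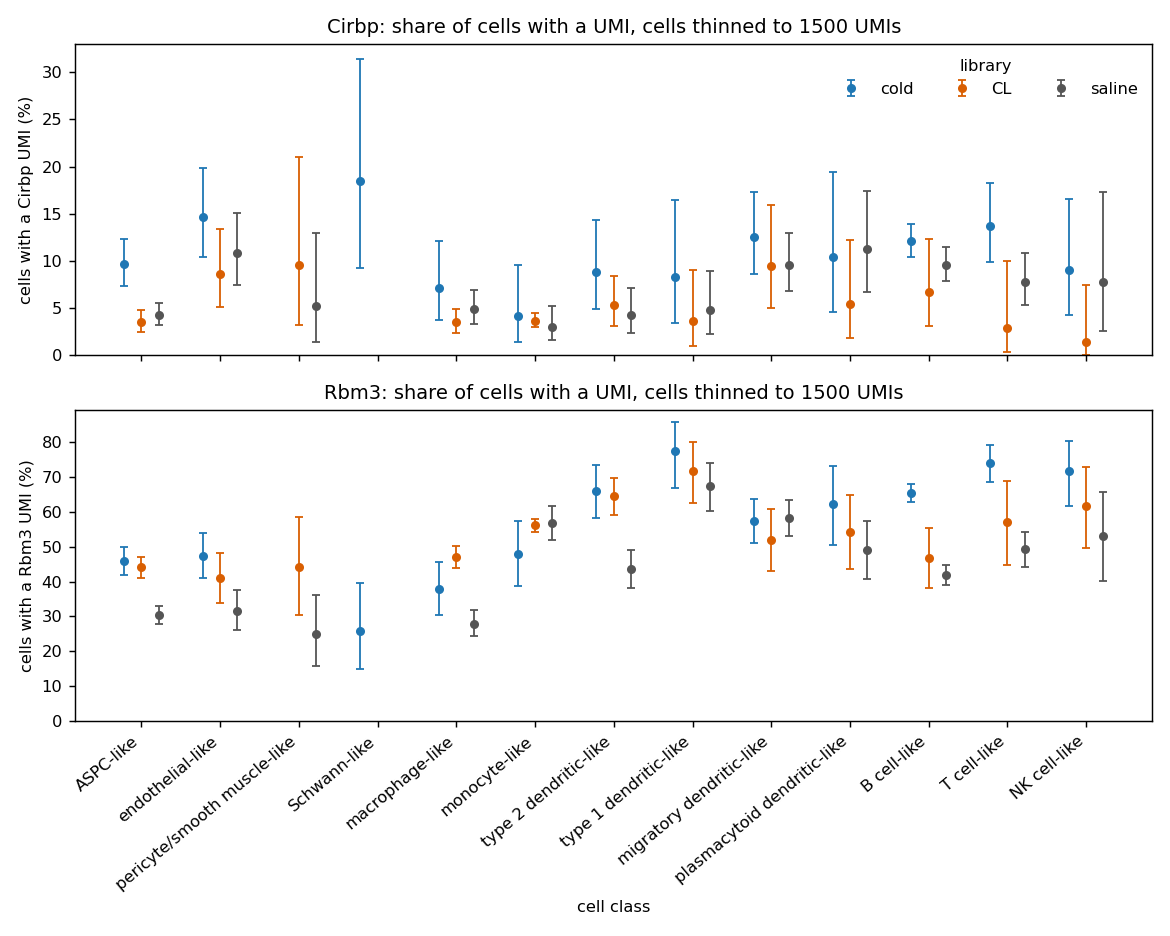
Share of cells with a UMI of Cirbp (top) or Rbm3 (bottom) after thinning to 1500 UMIs, with shallower cells left out, in percent, by cell class for the cold, CL and saline libraries (classes with at least 50 such cells). Bars are exact Clopper-Pearson 95% intervals; the Rbm3 share of B cell-like cells is 65.4% in cold, 46.7% in CL and 41.8% in saline.

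Other RNA-binding genes were seldom called higher in cold. Relatives of the 2 genes among glycine-rich and hnRNP proteins, which package and splice nuclear RNA, gave 283 measurements of 24 genes over 12 classes. Of these, 4.95% were called higher and 11.3% lower, and class medians ran from -0.28 to 0.07. Over all genes with at least 20 UMIs, 12.1 to 25.0% were called higher in a class, 8.22 to 23.1% lower, and class medians ran from -0.07 to 0.14. In ASPC-like cells the relatives had 0 of 24 higher and 1 lower, Tra2a, a splicing regulator, at 130.8 CPM in cold and 200.9 CPM in saline (-0.62, -0.76 to -0.48). The 10 SR proteins, which mark exons for splicing, gave 9 higher and 6 lower of 117 measurements. Of genes with a cold shock domain, the bacterial cold-response fold, 5 of 46 measurements were higher and 1 lower. Ybx1, the most abundant of them, had 691.3 CPM in cold and 463.5 CPM in saline in B cell-like cells (0.58, 0.49 to 0.67) but 638.8 CPM in cold and 583.1 CPM in saline in ASPC-like cells (0.13, 0.06 to 0.20).

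Genes reported to regulate the pair included the transcription factor Sp1, the kinases Clk1 and Clk4 and the channel Trpv4. They gave 0 higher and 16 lower (17.2%) of 93 measurements for cold over saline. Over all genes, 12.1 to 25.0% were called higher in a class and 8.22 to 23.1% lower. For CL over saline the regulators gave 3 higher and 28 lower (28.6%) of 98. There 13.4 to 29.3% of all genes were higher in a class and 10.9 to 22.1% lower. In ASPC-like cells Clk1 had 152.1 CPM in cold and 184.0 CPM in saline (-0.28, -0.41 to -0.14). Reported targets of the pair were split for cold over saline, with 8 higher (11.6%) and 5 lower (7.25%) of 69. Txn1, a thioredoxin whose transcript CIRBP is known to bind, had 238.6 CPM in cold and 102.7 CPM in saline in B cell-like cells (1.22, 1.04 to 1.40), but 470.1 CPM in cold and 625.0 CPM in saline in ASPC-like cells (-0.41, -0.49 to -0.34). Pooled over classes, clock genes had 15 higher (15.8%) and 21 lower (22.1%) of 95, both within the ranges over all genes. Single classes differed. ASPC-like cells had 4 higher and 3 lower of 14, where 12.6% of all genes were higher and 8.22% lower. Macrophage-like cells had 5 higher and 1 lower of 11, where 15.1% of all genes were higher and 13.5% lower. In 4 of 12 classes no clock gene was called higher. In ASPC-like cells Dbp, an output gene of the clock, had 69.6 CPM in cold and 32.7 CPM in saline (1.09, 0.84 to 1.33), Per3 was at 0.88 (0.47 to 1.29), Bhlhe40 at -1.33 (-1.60 to -1.06) and Per1 at -0.84 (-1.18 to -0.51). The time of day of each tissue collection was not given in the sources used here, and the part of the clock in the Cirbp and Rbm3 values was not tested.

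Genes of heat and handling moved with the comparison and are given beside it. Of 126 measurements of 11 heat shock genes, 1 was higher and 63 lower (50%) in cold than in saline. Over all genes, 12.1 to 25.0% were higher in a class and 8.22 to 23.1% lower. In plasmacytoid dendritic-like cells all 11 were lower, where 14.5% of all genes were, with Hspa1a at 19.7 CPM in cold and 2011 CPM in saline (-6.67, -7.89 to -5.69). All 11 were also lower in CL than in saline there, with a median of -1.23. Their summed level in this class was 4524 CPM in cold, 7622 CPM in CL and 16999 CPM in saline. T cell-like cells had Hspa1b at 55.2 CPM in cold and 429.7 CPM in saline (-2.96, -3.31 to -2.63). In ASPC-like cells, where Cirbp differed most among the larger classes, 2 of 11 heat shock genes were lower (8.22% of all genes). The summed level there was 4077 CPM in cold, 5289 CPM in CL and 4807 CPM in saline. Immediate early genes, which answer to cell stimulation and to tissue dissociation, gave 10 higher (6.41%) and 53 lower (34.0%) of 156. Endothelial-like cells had 10 of 13 lower, with a median of -0.77, where 19.0% of all genes were lower. For CL over saline they had 11 of 13 lower, with a median of -0.96, where 22.1% of all genes were lower. ASPC-like cells had 1 higher and 2 lower in cold, with a median of -0.03. For CL over saline, 9 of 129 heat shock measurements were higher and 50 lower. Immediate early genes gave 13 higher and 72 lower of 155 in that comparison, and clock genes 4 higher and 40 lower of 95. Over all genes, 13.4 to 29.3% were higher in a class there and 10.9 to 22.1% lower. The part of these genes in the Cirbp and Rbm3 values was not tested.

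**Figure D5:**
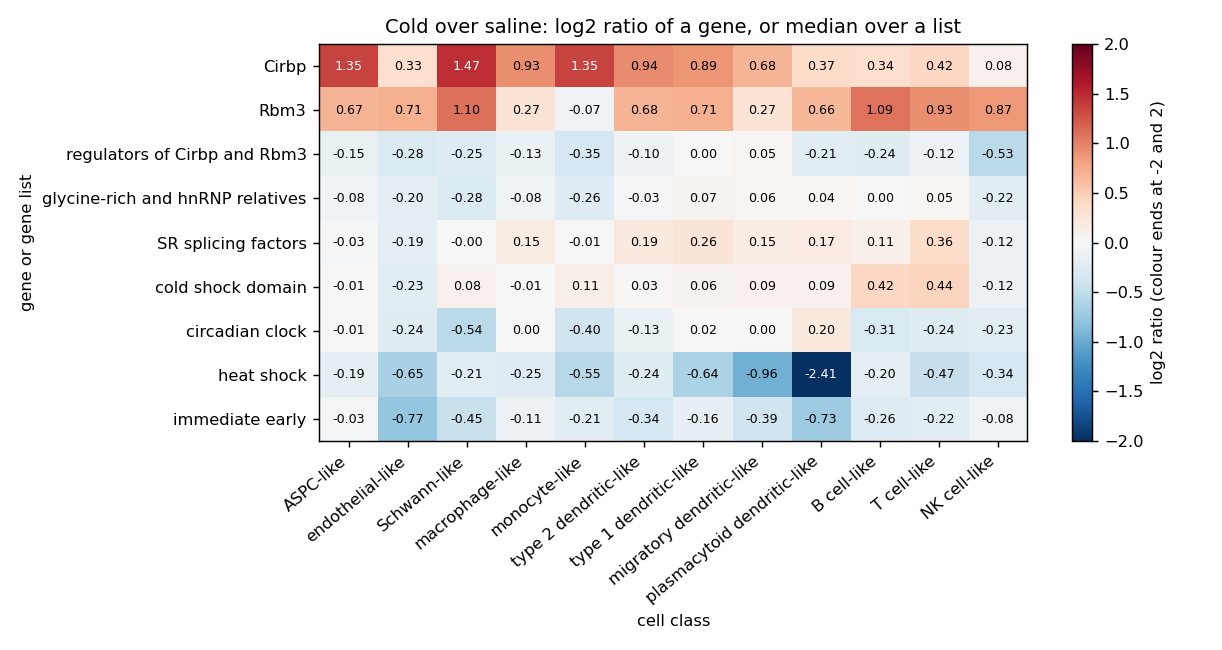
Log2 ratios of cold over saline by cell class for Cirbp and Rbm3 (top rows) and medians over the measured members of 7 gene lists; red is higher in cold and blue lower, and the colour ends at -2 and 2. The Cirbp row is positive in all 12 classes and the heat shock row negative in all 12, with -2.41 in plasmacytoid dendritic-like cells.

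Genes next to the pair on their chromosomes were called in both directions. The shares over all genes given above, 12.1 to 25.0% higher and 8.22 to 23.1% lower in a class, apply to them. Midn, before Cirbp, was higher in 2 and lower in 2 of 11 classes with enough UMIs for cold over saline, and in ASPC-like cells it had 89.3 CPM in cold and 130.4 CPM in saline (-0.55, -0.72 to -0.38). The gene 1600002K03Rik starts 158 bases after Cirbp on the same strand. It was higher in 3 and lower in 1 of 10 classes, and in ASPC-like cells had 15.3 CPM in cold and 12.3 CPM in saline (0.32, -0.16 to 0.78). Wdr13, beside Rbm3, was higher in 1 and lower in 2 of 10. Tbc1d25, on its other side, had enough UMIs in 1 class and was not called there. Rbm3os, an antisense gene that overlaps Rbm3, had 5, 7 and 4 UMIs in all cold, CL and saline cells.

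By level over 37 class and library profiles, the 2 genes were not alike (Pearson r = -0.08 of log2(CPM + 10), a description over profiles that share libraries and differ in depth). Among 6111 genes with a mean of at least 20 CPM, those most like Cirbp were Rrm2b (r = 0.66), Akap8l, Zfp644, Prpf39 and Zfp950, the last with r = 0.60. Those most like Rbm3 were Taf10 (r = 0.92), Nudt21, Rpl7a, Naca and Rpl19, the last with r = 0.90.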

How the data were processed

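Cirbp and Rbm3, the classes to show and the gene lists were chosen with earlier results of these data known. The authors deposited, for each library, a matrix of UMI counts with no normalization. Per the file headers the software version was 3.0.2, and the submitters' processing notes name Cell Ranger and mm10. The values are whole numbers whose totals differ between barcodes. Barcodes under 500 genes (1007 cold, 1147 CL, 1283 saline) or, of the rest, over 15% mitochondrial UMIs (181, 91, 120) were left out, then Scrublet doublets (expected rate of 8e-06 per cell, automatic limit). Totals over all barcodes were 19899223, 29323106 and 25875379 UMIs. With scanpy 1.11.5 and leidenalg 0.10.2, counts scaled to 10000 per cell and log-transformed gave 2000 variable genes without Cirbp and Rbm3, 30 components, 15 neighbours and Leiden clusters at resolution 1. A cluster took the class of 26 with the highest mean log2 fold of its markers (pseudocount of 20 CPM), given at least 3 markers at 50 CPM with a log2 fold of at least 1, and no more markers of another class among its 10 leading genes. Free RNA was not subtracted.

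UMIs were summed per class and library. CPM have exact Poisson intervals, shares exact Clopper-Pearson intervals and ratios exact conditional binomial intervals (scipy 1.17.1). The interval of the difference between the ratios of both genes is a normal approximation on the log scale. Background genes had at least 50 UMIs over both libraries in a class, or 20 where counted across classes. Genes named were Cirbp and Rbm3 in each class with at least 50 cells, up to 4 members of each list in a class discussed with the largest ratios, the 5 most alike by Pearson r, and chromosome neighbours. Class tallies of lists count members with at least 20 UMIs. The calls were tried on simulated Poisson counts for cold over saline, drawn from the pooled mean of both libraries, in genes with at least 50 UMIs. Of 200 genes raised by a log2 of 1, 99.5% were recovered in ASPC-like cells (9736 genes), where 1.91% of unchanged genes were called. In NK cell-like cells (1516 genes) 96.5% were recovered, where 6.08% of unchanged genes were called. For genes lowered by a log2 of 1 the recovered shares were 95.8% and 93.5%. Such counts hold no spread between mice, libraries or cells, so these shares describe counting error only. Genes with fewer than 50 UMIs were not covered. In all, 17 alternatives listed with the design and 2 chosen after seeing the data were tried.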

Additional observations from a re-analysis of the deposited data

How the results depend on the processing

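Of 1114 log2 ratios of a gene in a class under another setting, 1059 lay within the counting interval of the reported value, 55 outside it, and none of the called ones changed sign. Cirbp was never called higher in CL than in cold under any of the 19 settings. The number of classes with Cirbp higher in cold than in saline (7 reported) was 4 with cells thinned to 1500 UMIs, where 8 of 11 classes had enough UMIs, and 3 at a call limit of log2 1. That of Rbm3 (9) was 4 of 5 classes at a mitochondrial limit of 5%, where fewer classes kept 50 cells, and 2 at the limit of log2 1. Cirbp higher in CL than in saline (1) was 0 when thinned, with classes from each cell's own markers and at log2 1. Rbm3 higher in CL than in saline (5) was 3 at the 5% mitochondrial limit, with at least 1000 genes and with own-marker classes, 2 in the largest cluster of each class, 0 at log2 1 and 9 where the call was a counting interval past 0. Rbm3 higher in CL than in cold (0) was 1 when thinned and without dividing cells, and 2 by the counting interval. It was also 1 with both genes left in before variable genes were chosen, though neither was then chosen. Cirbp lower in CL than in cold (9), added after seeing the data, was 2 of 5 classes at the 5% mitochondrial limit and 5 of 11 at log2 1. Cirbp lower in CL than in saline (3), also added, was 1 at the 5% mitochondrial limit, with 1000 genes, with own-marker classes, at log2 1 and by the counting interval. Barcodes found in more than 1 library, and the 5% of cells with the most UMIs, left out after seeing the data, moved no count by over 1.5 times. The causes were not tested where none is named. No paired analysis was possible because the labels give each group 1 library and no shared replicate number. Leaving out a replicate was not possible for the same reason. Depth limits Cirbp: with 10 CL UMIs in T cell-like and 9 in NK cell-like cells, the called values of CL over saline had intervals that held 0.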

Other observations

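Barcodes left out of the cells also held both genes. In those under 500 genes Cirbp had 25.1 CPM in cold, 13.9 CPM in CL and 21.1 CPM in saline, and the log2 ratio of cold over saline was 0.25 (-0.59 to 1.11). Rbm3 had 145.5 CPM in cold, 146.4 CPM in CL and 119.3 CPM in saline there (0.29, -0.05 to 0.63). In those over 15% mitochondrial UMIs Cirbp had 65.8 CPM in cold, 41.2 CPM in CL and 63.1 CPM in saline, at a log2 ratio of 0.06 (-0.86 to 1.03) for cold over saline. Rbm3 there had 364.0 CPM in cold, 267.7 CPM in CL and 287.8 CPM in saline, at a log2 ratio of 0.34 (-0.07 to 0.76) for cold over saline.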
